A study of Mus musculus with 9 samples.

Results

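The cytosolic ribosomal protein (RP) genes encode the protein subunits of the ribosome that translates nuclear transcripts. They were chosen by name from the deposited count table, as every gene whose symbol was Rpl or Rps followed by a number, with or without a final a, together with Rpsa, Rplp0, Rplp1, Rplp2 and Rps4x. Symbols ending in -ps, which mark pseudogenes, and Rps27l were left out. The rule used no measured value and found 76 of 57010 genes, 46 of the large subunit and 30 of the small subunit. All 76 had more than 10 reads in every embryo and were among the 13680 genes tested. Rps3a1 and Fau, which also encode cytosolic ribosomal proteins, have other names and are described apart.

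RP messages are among the most abundant in a proliferating cell, and their products are made in equal amounts for assembly in the nucleolus. Most of them begin with a 5′ terminal oligopyrimidine (TOP) tract, through which mTOR signalling and the RNA-binding protein LARP1 set their translation and stability. Ribosomal proteins left unassembled, above all Rpl5 and Rpl11, bind Mdm2 and stabilize p53.

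The study asked how loss of Cnot3, a subunit of the CCR4-NOT deadenylase complex, alters gene expression in the embryonic cortex. Cortical tissue of single mouse embryos at E12.5 was sequenced, with 3 embryos in each of 3 groups: control (Ctrl, labelled WT), Cnot3 cKO and Cnot3;Trp53 dcKO. The cKO carried floxed Cnot3 and the dcKO floxed Cnot3 and floxed Trp53, both with Emx1-Cre, which acts in radial glia of the dorsal telencephalon and in their progeny, so that other cells of the tissue keep the genes. The age of E12.5 was common to all groups, and whether the controls carried Cre or floxed alleles is not given in the sources used here.

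Counted reads ranged from 21193798 to 45073349 per embryo, the deepest being dcKO embryo 2. Normalized counts below are reads per gene after TMM scaling to a common library size. Cnot3 reached 2756 to 3291 normalized counts in controls and 408 to 484 in cKO, and in dcKO it was 206, 1353 and 534 in embryos 1, 2 and 3. Trp53 was 6029 to 7123 in controls, 4612 to 4693 in cKO, and 423, 3098 and 579 in the same dcKO embryos. Embryo 2 of the dcKO group thus retained more of both targeted transcripts than embryos 1 and 3. Embryo 3 of the dcKO group stood apart from embryos 1 and 2 in base composition. The mean GC content of reads outside the RP genes, weighted by reads, was 49.34 to 50.04% in controls, 48.8 to 49.1% in cKO, 47.7% and 47.3% in dcKO embryos 1 and 2, and 50.1% in dcKO embryo 3. The medians and counts of calls in dcKO are therefore given also without embryo 2 or 3, and the values of several named genes without embryo 3. Neural markers were present in every embryo: the 8 radial glia genes summed to 2685 to 3573 CPM and the 8 neuron genes to 957 to 1729.

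The start of the coding sequence is shown for 3 members with low and 2 with high coding GC content, because the size of the difference between genotypes followed coding GC among the members. The first 10 codons of the GENCODE M21 transcripts are given 5′ to 3′ with G and C in capitals.
Rpl30: atGGtGGCCGCaaaGaaGaCGaaaaaGtCt
Rpl39: atGtCttCtCaCaaGaCtttCCGaatCaaG
Rps15a: atGGtGCGaatGaatGttCtGGCGGatGCt
Rpl18: atGGGtGttGaCattCGCCaCaaCaaGGaC
Rpl36: atGGCtCtGCGCtaCCCCatGGCCGtGGGC
In these stretches 14, 12 and 15 of 30 bases were G or C in Rpl30, Rpl39 and Rps15a, and 15 and 21 in Rpl18 and Rpl36. The first codons alone thus do not separate the members with low from those with high coding GC. Over the whole coding sequence GC reached 44.9% in Rpl30, 45.1% in Rpl39 and 45.9% in Rps15a, against 59.2% in Rpl18 and 61.6% in Rpl36.

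A further feature, more frequent among the members than over all promoters, lies at the transcription start. RefSeq promoters (GRCm38.p6) were matched by symbol for 56 members with 66 starts. An unbroken run of at least 7 C or T within 20 bases on either side of the start, on the transcribed strand, was present at 56.1% of these starts and at 24.3% of the 32851 promoters in the table. A C exactly at the start followed by at least 4 C or T was present at 19.7% of member starts and at 2.51% of all promoters. Windows of 30 bases, from 10 before the start, are given for Rplp2, Rpl38 and Rpl14, whose uncorrected counts in every cKO embryo lay below those of every control, and for Rps6, whose counts overlapped. All 4 were picked from the 13 member starts with a C exactly at the start followed by at least 4 C or T. The capitals mark the pyrimidine run that opens the transcript.
Rplp2, chr7:141447641-141447670, plus strand: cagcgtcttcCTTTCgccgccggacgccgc
Rpl38, chr11:114668570-114668599, plus strand: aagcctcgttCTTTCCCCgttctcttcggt
Rpl14, chr9:120571507-120571536, plus strand: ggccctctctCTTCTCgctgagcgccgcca
Rps6, chr4:86857348-86857377, minus strand: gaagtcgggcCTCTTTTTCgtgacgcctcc
These runs are matches of letters, present in transcripts on both sides of the comparison.

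RP transcripts took a smaller share of the library in cKO cortices than in controls. Reads on the 76 genes made up 5.76%, 6.19% and 5.89% of all counted reads in the controls and 4.70%, 4.53% and 4.88% in the cKO embryos. In the dcKO embryos the share was 4.11%, 4.10% and 5.72%. No cKO embryo reached the lowest control, whereas dcKO embryo 3 lay just below it. The means were 5.95% ± 0.221 in Ctrl, 4.70% ± 0.173 in cKO and 4.64% ± 0.935 in dcKO (SD, n = 3 each). In bulk tissue, fewer cells of a type and less RNA per cell cannot be told apart.

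**Figure D1:**
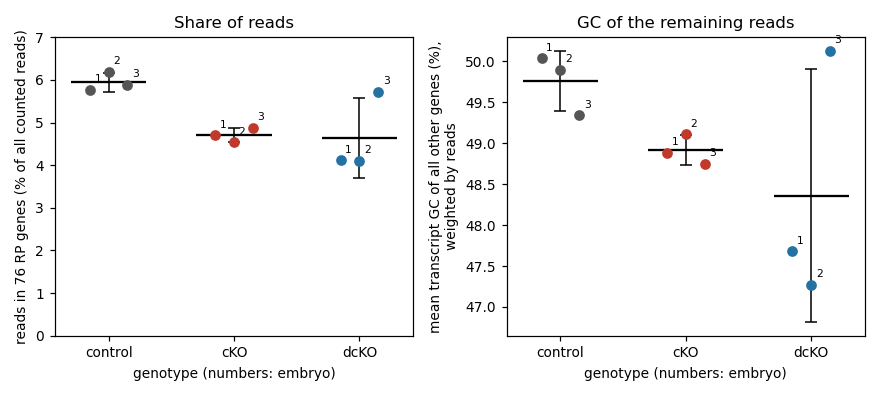
Left, reads on the 76 RP genes as a percent of all counted reads in each embryo, and right, the read-weighted mean transcript GC content of all other genes. Points are embryos, numbered, with the mean and SD of each genotype. The RP share lies at 4.53 to 4.88% in cKO and 5.76 to 6.19% in controls, and dcKO embryo 3 lies apart from its group in both panels.

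Most members were lower in cKO, but no single member passed the adjusted threshold of the model. The log2 fold change in cKO was below 0 for 70 of 76 members, with a median of -0.56 against 0.01 over all genes tested, and it ranged from -2.74 to 0.12. In 52 members every cKO embryo lay below every control and in 0 members above, against 28% and 29.2% of all genes tested. edgeR called 0 members at an adjusted p under 0.05, with 0.0146% of all genes called. At an unadjusted p under 0.05 it gave 33 members lower and 0 higher, where 11.7% of all genes were lower and 15.3% higher. The smallest adjusted p of a member was 0.0509, and 19 members were lower at an adjusted p under 0.1, beside 757 of the 13680 genes. DESeq2 on the same counts called 22 members lower and 0 higher at an adjusted p under 0.05, with 7.08% and 9.61% of all genes called in these directions.

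These calls depended on the embryos in the model. In edgeR, which shares its spread over the 3 genotypes, 20, 13 and 45 members were lower in cKO at an adjusted p under 0.05 without dcKO embryo 1, 2 or 3, and 50 with the control and cKO embryos alone. Over all genes 5.39%, 7.15%, 14.8% and 24.2% were called lower in these 4 fits, so that part of the rise was common to all genes. DESeq2's 22 became 4, 3 and 12 without control 1, 2 or 3, 4, 5 and 4 without cKO embryo 1, 2 or 3, and 37 and 48 without dcKO embryo 1 or 3, where 1.64 to 4.3% of all genes were called lower without a control or cKO embryo and 11% and 19% without dcKO embryo 1 or 3.

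**Figure D2:**
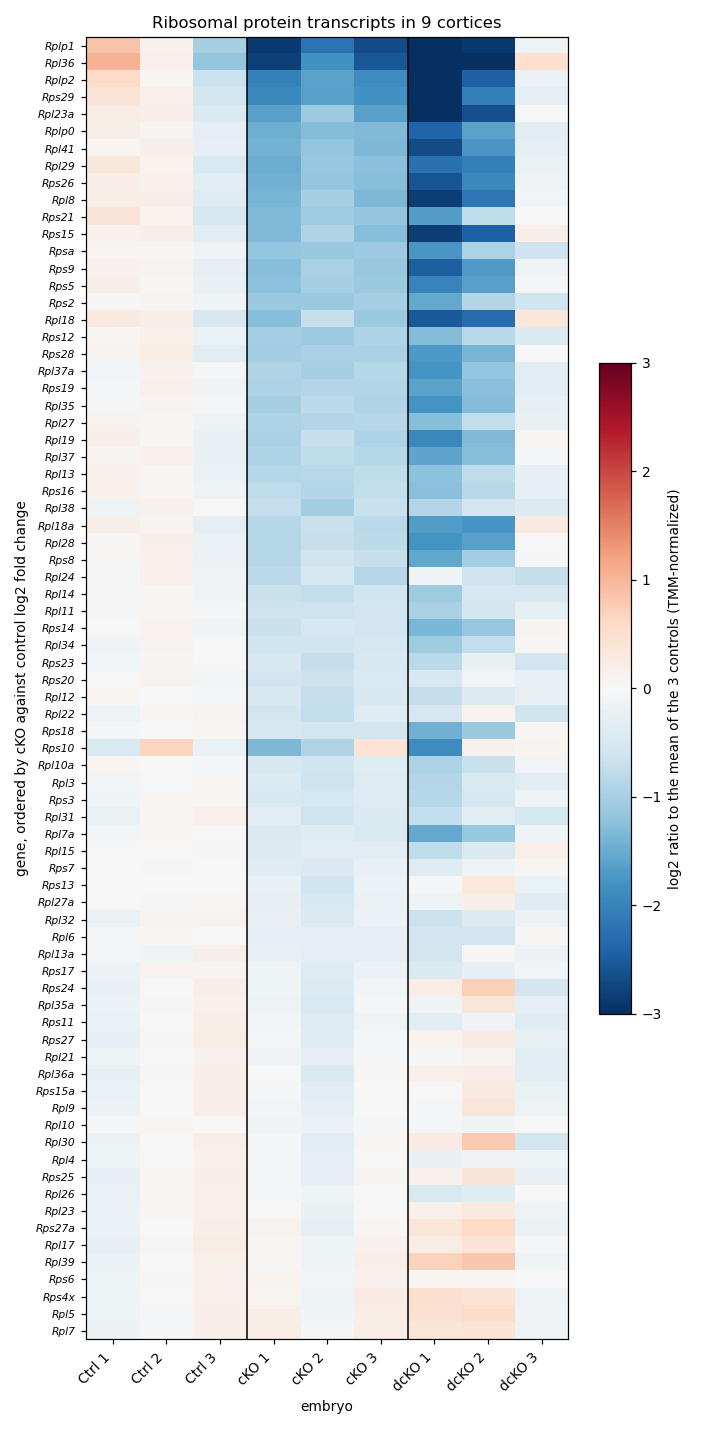
Log2 ratio of each member's TMM-normalized count to the mean of the 3 controls in the 9 embryos, with genes ordered by the cKO against control fold change; ratios below -3 are drawn at -3. The 3 cKO embryos are lower for the genes in the upper part of the plot, dcKO embryos 1 and 2 are lower still for many of these, and dcKO embryo 3 lies nearer to the controls.

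The P stalk showed some of the largest differences. It is built from Rplp0 and pairs of Rplp1 and Rplp2 and recruits the translation factors that hydrolyse GTP on the large subunit. Rplp0 had 69118, 65303 and 51279 normalized counts in the controls, 22135, 25054 and 24452 in cKO and 11669, 20154 and 49594 in dcKO. Every mutant embryo was below every control, although dcKO embryo 3 was close to control 3. The log2 fold change was -1.37 ± 0.43 (SE) in cKO and -1.19 ± 0.43 in dcKO (edgeR adjusted p = 0.0831 and 0.106; DESeq2 adjusted p = 0.0137 and 0.0302), and the exact permutation test gave 0.1, the smallest p that 3 embryos against 3 allow. Rplp1 had 25132, 15208 and 6972 in the controls, 1910, 3004 and 2149 in cKO and 747, 1878 and 12464 in dcKO. The controls themselves spanned a 3.61-fold range, the cKO embryos did not overlap with them, and dcKO embryo 3 lay inside the control range. The log2 fold change of Rplp1 in cKO was -2.74 ± 0.88 (edgeR adjusted p = 0.0881; DESeq2 0.0327). Rplp2 followed the same order of embryos, with 14784, 10454 and 6437 in controls, 2450, 3271 and 2681 in cKO and 1190, 1822 and 8728 in dcKO.

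Rpsa, Rps2 and Rps12 of the small subunit had differences with a smaller spread. Rpsa is a 40S protein also known as the laminin receptor, and it had 81382, 81171 and 72559 normalized counts in controls, 35077, 35363 and 36567 in cKO and 23141, 40352 and 50983 in dcKO. The 3 cKO embryos lay close together at 45.5% of the control mean, and all dcKO embryos were below all controls. The log2 fold change was -1.14 ± 0.26 in cKO and -1.04 ± 0.26 in dcKO (edgeR adjusted p = 0.0515 and 0.0544; DESeq2 0.00136 and 0.00297). Rps2, a protein of the mRNA entry region, had 55878, 57517 and 50035 in controls, 25341, 25128 and 27449 in cKO and 18814, 29674 and 35809 in dcKO. It had the smallest p of all members in both mutants, with log2 fold changes of -1.07 ± 0.23 and -0.96 ± 0.23 (edgeR adjusted p = 0.0509 and 0.0526), the latter becoming -0.43 under a correction of the counts for transcript GC content and length. Rps12 differed by -1.01 ± 0.23 in cKO and -0.81 ± 0.22 in dcKO (edgeR adjusted p = 0.0509 and 0.0610), with every mutant embryo below every control, and its dcKO value became -0.53 under the same correction.

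On the large subunit, Rpl38 had the smallest p in cKO and Rpl14 in dcKO. Rpl38, whose loss alters the axial skeleton in the Tail short mouse, had 6418, 7877 and 7143 normalized counts in controls, 4399, 3474 and 4510 in cKO and 3888, 4828 and 5372 in dcKO. All mutants were below all controls, and the log2 fold changes were -0.79 ± 0.18 and -0.61 ± 0.18 (edgeR adjusted p = 0.0514 and 0.0714). A correction for transcript GC content and length turned these values to 0.0786 and 0.47, so that the direction of Rpl38 rests on leaving them uncorrected. Rpl14 had 18634 to 20871 normalized counts in controls, 12092 to 13274 in cKO and 9637 to 14196 in dcKO, and it differed by -0.67 ± 0.18 in both mutants (edgeR adjusted p = 0.0649 in cKO and 0.0614 in dcKO), with no mutant reaching the controls.

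Rpl11 and Rpl5 form a particle with 5S ribosomal RNA that binds Mdm2, and the difference between them was not tested. Rpl11 had 22259, 23737 and 21963 normalized counts in controls, 14744, 14832 and 15556 in cKO and 11539, 15495 and 18630 in dcKO. All mutants were below all controls, with log2 fold changes of -0.59 ± 0.19 and -0.57 ± 0.19 (edgeR adjusted p = 0.0896 and 0.0895). Rpl5 had 39898, 43317 and 51639 in controls, 50835, 40967 and 51208 in cKO and 61195, 64961 and 41358 in dcKO. Control and cKO embryos overlapped, and the log2 fold change of 0.08 ± 0.22 in cKO and 0.31 ± 0.22 in dcKO did not pass the test (edgeR adjusted p = 0.834 and 0.366). Under the GC and length correction both were below 0 in cKO, Rpl11 at -0.45 ± 0.12 and Rpl5 at -0.32 ± 0.13 (edgeR adjusted p = 0.0417 and 0.115). In dcKO the same correction gave -0.39 for Rpl11 and turned Rpl5 to -0.28 (edgeR adjusted p = 0.0873 and 0.204).

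**Figure D3:**
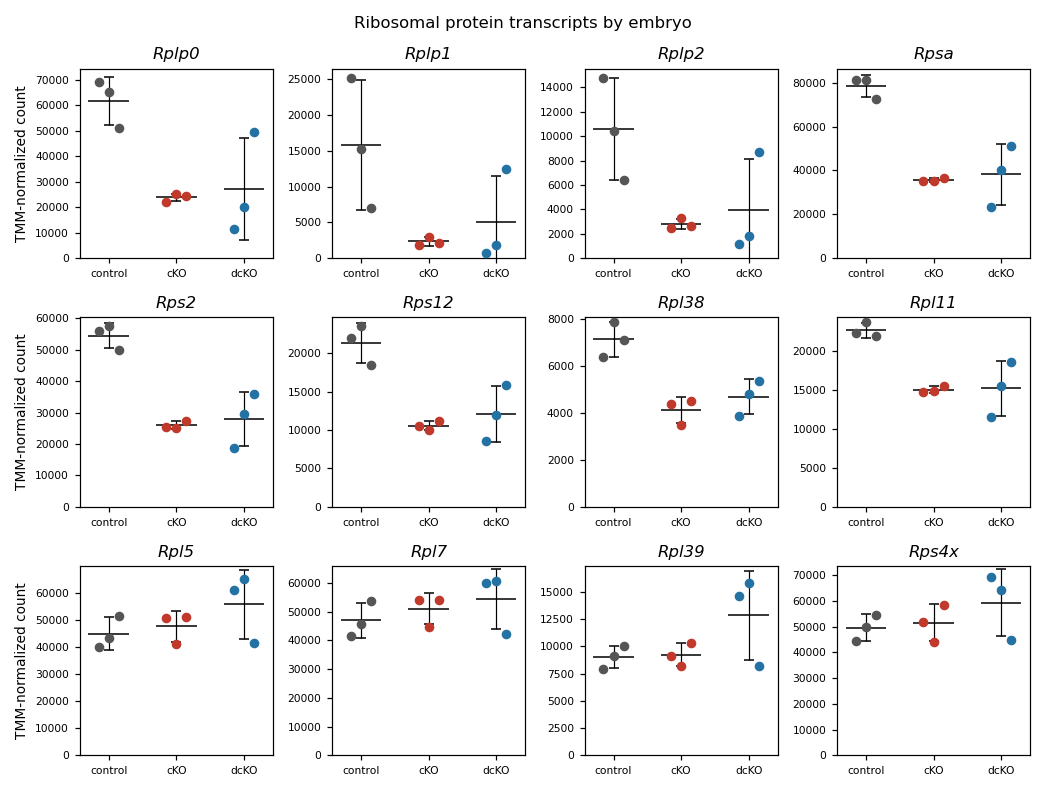
TMM-normalized counts of 12 members in each embryo, with the mean and SD of each genotype; the axes start at 0 and cut SD bars there. Rplp0, Rpsa, Rps2, Rps12, Rpl38 and Rpl11 are separated between controls and both mutants, whereas Rpl5, Rpl7, Rpl39 and Rps4x overlap.

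A few members were at or above the control level in the uncorrected counts. Rpl7, Rpl5, Rps6 and Rps4x had the smallest p among the members with a positive log2 fold change in cKO, at 0.12, 0.08, 0.05 and 0.05, and none of them passed a threshold (edgeR adjusted p of 0.751 to 0.894). Under the GC and length correction Rpl7, Rpl5 and Rps4x turned below 0 in cKO, at -0.14, -0.32 and -0.07, and Rps6 was at 0.02. Rps6 is the S6 kinase substrate, and it had 29064, 33282 and 35211 normalized counts in controls against 34764, 30675 and 35225 in cKO. In dcKO the corresponding members were Rpl39, Rpl5, Rps27a and Rps4x, at 0.51, 0.31, 0.28 and 0.26. The GC and length correction changed these values to 0.45, -0.28, 0.19 and 0.06. Rpl39, a small protein of the exit tunnel, had 7912, 9102 and 9981 in controls and 14573, 15748 and 8161 in dcKO, so that embryos 1 and 2 lay above all controls and embryo 3 among them (edgeR adjusted p = 0.189). The 4 X-linked members, Rps4x, Rpl10, Rpl36a and Rpl39, ranged from -0.13 to 0.05 in cKO. In either mutant 0 of 4 had an unadjusted edgeR p under 0.05, nor did DESeq2 call any of the 4. Of all genes, 11.7% were lower and 15.3% higher in cKO at that p, and 11.2% and 18% in dcKO. On 4 genes, 0 called does not set them apart. Their coding GC was 45.1 to 51.1%, and the 26 members with the lowest coding GC had a median of -0.13 in cKO. Under the GC and length correction Rpl39 had an unadjusted edgeR p of 0.0243 in dcKO. Rps27a, which is made as a fusion with ubiquitin, differed by -0.04 ± 0.23 in cKO.

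Of 19 members that are mutated in Diamond-Blackfan anemia, a disorder of red cell production with raised p53 activity, 7 were lower in cKO at an unadjusted edgeR p under 0.05 and 7 in dcKO, with 0 higher in either. These are 36.8% of the group, against 33 and 30 of all 76 members and 11.7% and 11.2% of all genes. Their median log2 fold change was -0.34 in cKO and -0.29 in dcKO. Rps19, the gene most often mutated in the disorder, had 20189, 23215 and 19452 normalized counts in controls, 10961, 11296 and 11447 in cKO and 6843, 8809 and 16660 in dcKO. All mutants were below all controls, at log2 fold changes of -0.90 ± 0.29 and -0.96 ± 0.29 (edgeR adjusted p = 0.0873 and 0.0720), which became -0.115 and -0.0795 under the correction for transcript GC content and length. Rps29 had the most negative log2 fold change of this group in both mutants, at -1.84 ± 0.58 and -1.42 ± 0.57, while Rps7, Rps24, Rpl9 and Rps15a had an unadjusted edgeR p of 0.0774 or more in both. These are results of the uncorrected counts. With the GC and length correction Rps7, Rps24, Rpl9 and Rps15a were at -0.42 ± 0.14, -0.58 ± 0.21, -0.10 ± 0.12 and -0.31 ± 0.14 in cKO. In dcKO they were then at -0.29, -0.27, -0.02 and -0.24.

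Rpl22, a large-subunit protein that is dispensable for general translation and has a paralog, Rpl22l1, had 11655, 13342 and 13782 normalized counts in controls, 8795, 7715 and 9867 in cKO and 9072, 13546 and 8547 in dcKO. Its cKO embryos were all below the controls and dcKO embryo 2 was not, with log2 fold changes of -0.56 ± 0.21 and -0.32 ± 0.21 (edgeR adjusted p = 0.123 and 0.327). Under the GC and length correction they were -0.84 and -0.56 (edgeR adjusted p = 0.0305 and 0.103). Rpl22l1 had 2047, 2323 and 2500 in controls, 2995, 2510 and 3271 in cKO and 4576, 5709 and 2322 in dcKO. All cKO embryos were above the controls, dcKO embryo 3 was not, and the log2 fold change was 0.35 ± 0.28 in cKO and 0.88 ± 0.28 in dcKO (edgeR adjusted p = 0.450 and 0.0849).

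In dcKO the members again lay mainly below the controls, with more spread. The median log2 fold change was -0.53 against 0.11 over all genes, and 59 of 76 members were below 0. In 21 members every dcKO embryo lay below every control and in 0 above, where 11.2% and 15.6% of all genes did. edgeR called 0 members at an adjusted p under 0.05 (0% of all genes), and at an unadjusted p under 0.05 it gave 30 lower and 0 higher, against 11.2% and 18% of all genes. DESeq2 called 19 lower and 0 higher at an adjusted p under 0.05, with 7.41% and 10.3% of all genes. This comparison and that of cKO with Ctrl use the same 3 controls.

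The dcKO values turned on embryo 3. The median log2 ratio of the members to the control mean was -0.92, -0.55 and -0.16 in dcKO embryos 1, 2 and 3, against -0.61 to -0.49 in cKO and -0.04 to 0.06 in the controls. Below all 3 controls were 57, 51 and 35 members in these dcKO embryos and 52 to 70 members in the cKO embryos. Above all 3 controls were 7, 16 and 4 members in the dcKO embryos and 0 to 4 in the cKO embryos. Of all genes tested, 36.2 to 42.3% were below and 39.6 to 46.2% above all controls in single mutant embryos. Without dcKO embryo 3, edgeR called 47 members lower in dcKO and 4 higher (Rps27a, Rpl5, Rpl30 and Rpl39) at an adjusted p under 0.05, with a median log2 fold change of -0.69, where 23.7% of all genes were lower and 25.5% higher. Without embryo 2 it called 6 members lower and 0 higher, against 6.07% and 12% of all genes, with a median of -0.50. At an unadjusted p under 0.05 the 30 became 15, 18 and 48 without dcKO embryo 1, 2 or 3, and 18 and 14 without control 1 or 2. The shares of all genes lower at that p in these fits were 6.62%, 13.6%, 26.5%, 6.67% and 6.77%. DESeq2's 19 became 2, 2 and 4 without control 1, 2 or 3, 6, 8 and 7 without cKO embryo 1, 2 or 3, and 6, 12 and 48 without dcKO embryo 1, 2 or 3. Over all genes, DESeq2 called 1.48 to 5.18% lower without a control or cKO embryo and 3.87%, 10.9% and 26.1% without dcKO embryo 1, 2 or 3. Among named members the dcKO log2 fold change without embryo 3 became -1.96 in Rplp0, -3.59 in Rplp1, -2.81 in Rplp2 and -2.55 in Rps29. It became -4.35 in Rpl36, from -1.24 with all embryos, and -2.45 in Rpl18, from -0.89. On the higher side it became 0.49 in Rpl5, 0.48 in Rps27a and 0.43 in Rps4x, and in Rpl22 it became -0.19.

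The dcKO and cKO cortices, which differ by design in Trp53, were also compared directly. Trp53 was 4612 to 4693 normalized counts in cKO, and 423, 3098 and 579 in dcKO embryos 1, 2 and 3. Cnot3 was 408 to 484 in cKO, and 206, 1353 and 534 in these dcKO embryos. In embryo 2 Trp53 lay nearer to cKO than to the other dcKO embryos, and Cnot3 was above every cKO embryo. The contrast is therefore not one of Trp53 loss alone. edgeR called 0 members at an adjusted p under 0.05 (0.0146% of all genes) and 0 lower and 0 higher at an unadjusted p under 0.05 (2.38% and 2.05% of all genes), and DESeq2 likewise called 0. No member had groups that did not overlap, lower or higher, against 3.63% and 2.62% of all genes. The median log2 fold change was 0.11 against 0.07 over all genes. The members with the smallest p were Rpl39, Rps13 and Rps20 on the higher side, at 0.48 ± 0.24, 0.36 ± 0.19 and 0.30 ± 0.17, and Rpl7a, Rpl26 and Rpl32 on the lower side, at -0.39 ± 0.31, -0.20 ± 0.18 and -0.13 ± 0.19 (edgeR adjusted p of 0.889 to 0.948). Rpl7a had 32531, 33827 and 31573 normalized counts in cKO and 15098, 19793 and 39793 in dcKO, with dcKO embryo 3 above and embryos 1 and 2 below all cKO embryos. Without dcKO embryo 3, edgeR put 22 members below and 4 above the cKO level at an adjusted p under 0.05, where 13.1% and 13.5% of all genes were called, and the median became -0.15, so that the calls turned on 1 embryo. In that fit Rpl7a differed by -0.90 (edgeR adjusted p = 0.0137), Rpl26 by -0.34 and Rpl32 by -0.26. On the higher side Rpl39 differed by 0.72 (edgeR adjusted p = 0.0145), and Rpl36 turned from 1.35 to -1.76 (edgeR adjusted p = 0.0410). Without dcKO embryo 2, edgeR called 0 members at an adjusted p under 0.05, and the median was 0.10. Of all genes 0.0292% were called lower and 0% higher in that fit.

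Among the members, the log2 fold change was more negative the higher the coding GC content. When the 76 were ordered by coding GC and split in 3, the 26 with 44.9 to 50.8% had a median log2 fold change of -0.13 in cKO, the 25 with 51.0 to 54.6% had -0.58 and the 25 with 54.7 to 61.6% had -1.04. In dcKO the same medians were 0.03, -0.54 and -0.96, and they became 0.15, -0.76 and -1.71 without embryo 3 and -0.10, -0.51 and -0.73 without embryo 2. Every one of the 50 members in the upper parts was below 0 in cKO. Pearson's r between log2 fold change and coding GC over the 76 members was -0.749 in cKO and -0.831 in dcKO (Spearman's rho -0.789 and -0.828). Over 12035 other coding genes r was -0.359 and -0.514, so that the members shared the direction of the other genes. Genes of 1 comparison share their libraries, and no test was made.

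The same relation differed between embryos of the dcKO group. Pearson's r between a member's log2 ratio to the control mean and its coding GC ranged from -0.777 to -0.692 in cKO and was -0.828 and -0.823 in dcKO embryos 1 and 2, and 0.340 in dcKO embryo 3. In the controls it was 0.679, 0.436 and -0.755. Their own mean is the reference, so the log2 ratios of the 3 controls must balance for each gene, though the correlations need not. The member with the widest control range was Rpl36, at 6597, 3556 and 1414 normalized counts in the controls, 463, 918 and 541 in cKO and 151, 227 and 4520 in dcKO. Its cKO embryos were below all controls, but dcKO embryo 3 was above 2 of them, and edgeR gave -2.59 ± 1.12 in cKO (adjusted p = 0.172), or -1.41 ± 0.72 under a correction for transcript GC content and length. The GC content of the reads moved with these results, as given above, and its part in them was not tested. After a correction of the counts for transcript GC content and length, the median log2 fold change of the members was -0.46 in cKO and -0.44 in dcKO, 67 and 65 members were below 0, and r with coding GC was -0.528 and -0.557. With that correction edgeR called 20 members lower in cKO at an adjusted p under 0.05, among them Rplp0, Rplp1, Rplp2, Rpsa, Rps2 and Rps12, and 3 in dcKO (Rpsa, Rpl31 and Rps23), with 7.66% and 0.811% of all genes called lower.

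**Figure D4:**
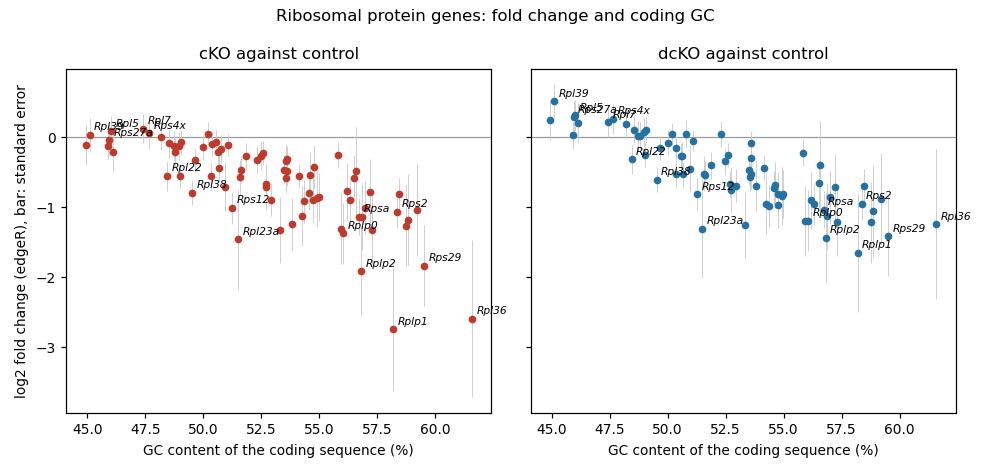
Log2 fold change of the 76 members (edgeR, bar: standard error) against the GC content of the coding sequence, for cKO and dcKO against control. Points fall from near 0 at the left of each panel to below -1 at the right, with r of -0.749 in cKO and -0.831 in dcKO.

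Levels between members can be set side by side only per length. In controls, Rpl41, Rps2 and Rps4x were highest per kb of exon, at 56970, 54590 and 50870 normalized counts per kb, and their order depended on the length used, since Rpsa ranked behind only Rpl41 per kb of coding sequence. Rps10, Rpl24 and Rpl13a were lowest, at 56.7, 63.0 and 1543 per kb. Rps10 had 34.3, 75.2 and 41.5 normalized counts in controls and Rpl24 had 41.2, 47.3 and 39.5, far below the other members. RP genes share sequence with many processed pseudogenes, of which 300 were in the table, and how reads with several alignments were treated is not given in the sources used here. The values of these 3 members, and to some degree of all members, are therefore uncertain as levels.

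Counts on the pseudogenes moved with the members. Of 300 pseudogenes 112 were tested, with a median log2 fold change of -0.43 in cKO and -0.26 in dcKO, 24 and 22 lower and 0 higher at an unadjusted edgeR p under 0.05, which are 21.4% and 19.6% of those tested against 11.7% and 11.2% of all genes. They took 0.322 to 0.388% of reads in controls, 0.288 to 0.324% in cKO and 0.291 to 0.350% in dcKO. Rps2-ps10 had the smallest p in cKO, at a log2 fold change of -1.37 ± 0.31 beside -1.07 for Rps2 (edgeR adjusted p = 0.0509 for each). Which of the 2 copies gave the reads cannot be told from these counts.

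Of the paralogs and RP genes outside the naming rule, 6 of 11 were tested. Fau, a fusion of a ubiquitin-like protein with Rps30, had 14773, 12240 and 8421 normalized counts in controls, 5272, 5509 and 5044 in cKO and 2934, 3929 and 11842 in dcKO. The cKO embryos were below all controls, at a log2 fold change of -1.16 ± 0.45 (edgeR adjusted p = 0.133). Rps3a1 differed by -0.11 ± 0.21 and overlapped between the groups. Rpl7l1 differed by 0.45 ± 0.18 in cKO (edgeR adjusted p = 0.139). Rps27l, a p53 target, differed by 0.40 ± 0.25 in cKO and 0.16 ± 0.25 in dcKO (edgeR adjusted p = 0.320 and 0.693). Rps27rt differed by -0.34 ± 0.26 in cKO. Rpl3l, Rpl10l, Rpl39l and Rpl36al had at most 13 reads in any embryo and were not tested.

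Of 83 mitochondrial ribosomal protein genes 80 were tested, with a median log2 fold change of 0.05 in cKO and 0.09 in dcKO; 7 were lower and 15 higher in cKO at an unadjusted edgeR p under 0.05, and 2 and 12 in dcKO. These are 8.75% lower and 18.8% higher in cKO and 2.5% and 15% in dcKO, beside the shares over all genes of 11.7% and 15.3% and of 11.2% and 18%. Their median coding GC was 53.4%, against 52.8% for the cytosolic members. Pearson's r between their log2 fold change and coding GC was -0.515 in cKO and -0.589 in dcKO. Mrpl39 and Mrps22 were among the higher ones, at 0.80 ± 0.16 and 0.87 ± 0.19 in cKO (edgeR adjusted p = 0.0509 for each). The difference between the 2 families was not tested.

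Among 20 other TOP messages, which encode translation factors and related proteins, 2 were lower and 1 higher in cKO at an unadjusted edgeR p under 0.05, and 4 and 2 in dcKO, with medians of -0.20 and -0.11. The shares were 10% and 5% in cKO and 20% and 10% in dcKO, on a few genes each, beside 11.7% and 15.3% and then 11.2% and 18% of all genes. The median coding GC of these 20 messages was 50.64%. Pearson's r of their log2 fold change with coding GC was -0.505 in cKO and -0.74 in dcKO. Eef2, the factor that moves the ribosome along the message, had 105961, 91405 and 69317 normalized counts in controls, 33745, 42249 and 35162 in cKO and 16183, 22636 and 69255 in dcKO, so that dcKO embryo 3 lay just below control 3. Eif4a2, a helicase that binds CCR4-NOT, was higher in every mutant embryo, at 2566 to 2882 in controls, 7156 to 9369 in cKO and 5933 to 16322 in dcKO (log2 fold change 1.58 ± 0.32 and 1.88 ± 0.33, edgeR adjusted p = 0.0509 and 0.0502).

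Of 38 ribosome biogenesis factors, 6 were lower and 5 higher in cKO at an unadjusted edgeR p under 0.05, and 10 and 6 in dcKO, with medians of -0.08 and -0.06. The cKO shares of 15.8% and 13.2% were near those of all genes, and the dcKO shares were 26.3% and 15.8%. The median coding GC of the 38 factors was 50.03%, with r of -0.699 in cKO and -0.829 in dcKO. Nhp2 and Fbl, which modify ribosomal RNA, differed by -1.22 ± 0.32 and -0.99 ± 0.28 in cKO, and Nop14 and Utp20 of the small-subunit processome by 0.49 ± 0.16 and 0.54 ± 0.19 (edgeR adjusted p of 0.0606 to 0.106). Of 10 regulators of RP synthesis, 3 were lower and 0 higher in each mutant at that threshold, with medians of -0.38 in cKO and -0.48 in dcKO, close to the members' own in dcKO. These are 30% of a short list, where 11.7% of all genes were lower in cKO and 11.2% in dcKO. The median coding GC of the 10 regulators was 55.51%, with r of -0.404 in cKO and -0.713 in dcKO. The part of coding GC in the differences between lists was not tested. Larp1, which binds TOP tracts, had 5014, 4566 and 4854 normalized counts in controls, 3312, 3291 and 2912 in cKO and 2292, 3476 and 2844 in dcKO. All mutant embryos were below the controls, at -0.60 ± 0.18 and -0.74 ± 0.18 (edgeR adjusted p = 0.0717 and 0.0511). Mycn, a driver of ribosome synthesis in neural progenitors, differed by -0.96 ± 0.25 in cKO (edgeR adjusted p = 0.0578).

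**Figure D5:**
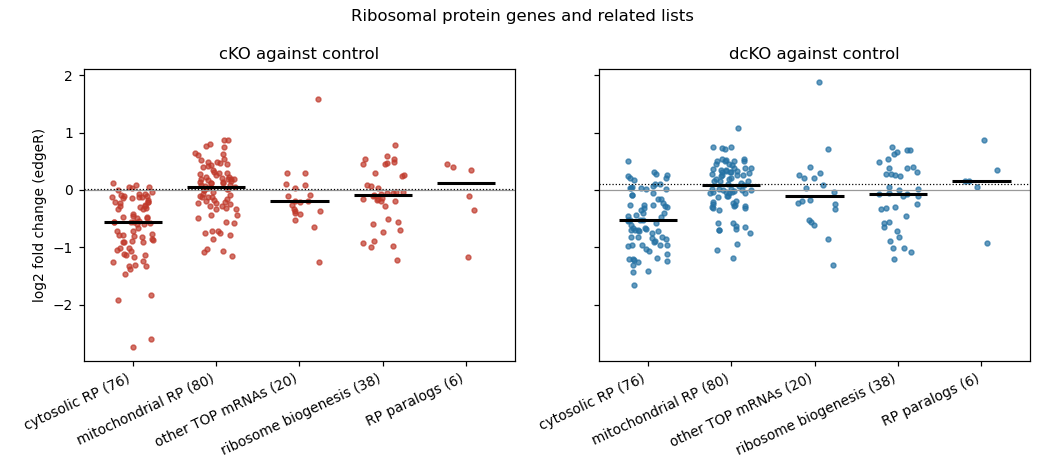
Log2 fold change (edgeR) of each tested gene of 5 lists in cKO and dcKO against control; thick bars are list medians and the dotted line is the median of all genes tested. The cytosolic members have medians of -0.56 and -0.53, the 80 mitochondrial ribosomal protein genes 0.05 and 0.09.

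Markers of cells outside the Emx1 lineage also moved between the groups. The 10 red blood cell genes summed to 7470 to 11030 CPM in controls, 10420 to 15450 in cKO and 4326 to 7179 in dcKO, with 3 of 10 higher in cKO and 6 of 10 lower in dcKO at an unadjusted edgeR p under 0.05, where 15.3% of all genes were higher in cKO and 11.2% lower in dcKO. They did not move as 1 set in cKO, where 3 of the 10 had a log2 fold change below 0. Pearson's r between their log2 fold change and coding GC was -0.969 in cKO and -0.911 in dcKO. The 8 endothelial genes summed to 225 to 308, 237 to 340 and 141 to 168, with 0 of 8 past that threshold in cKO and 5 of 8 lower in dcKO. The 8 meningeal fibroblast genes summed to 748 to 835, 497 to 785 and 310 to 546, and the 8 microglia and macrophage genes to 40.0 to 49.2, 45.3 to 103 and 13.8 to 38.6. In dcKO 3 of 7 tested meningeal genes and 1 of 6 tested microglia genes were lower at that p. Between dcKO and cKO, 8 of 10 red blood cell, 5 of 8 endothelial and 6 of 6 tested microglia genes were lower in dcKO. Of the 7 tested meningeal genes 0 were, where 2.38% of all genes were lower. No marker was at 0 in every embryo. The part of these cells in the RP results was not tested.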

How the data were processed

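Cortices of 9 single embryos (3 per genotype, stated to be biological replicates) had been prepared as stranded poly(A) libraries, trimmed with Cutadapt, aligned to mm39 with STAR and counted per gene with featureCounts. The authors deposited raw counts, whole numbers of reads for 57010 Ensembl genes, without normalization or filter. Tool versions and the annotation release are not given in the sources used here. Identifiers were matched to symbols for 52029 genes; GENCODE M21, which is of the GRCm38 build, supplied transcript lengths, base composition and open reading frames, matched by identifier and never by coordinate, for 13561 of the 13680 genes tested and all 76 members.

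Counts were tested in R 4.3.3 with edgeR 4.0.16 (TMM, quasi-likelihood test, one model of 9 embryos, no covariate) on genes whose count exceeded 10 in each of the 9 libraries, with Benjamini-Hochberg adjustment over all of them at 0.05. DESeq2 1.42.0 and limma 3.58.1 voom were alternatives. The exact two-sided permutation test used log2 of normalized counts plus 0.5. Lists were described by counts and medians and were not tested. The depth of 21193798 to 45073349 reads gave 71 members over 1000 reads in every embryo; Rps10 and Rpl24 had fewer than 100, where counting error is large. Other alternatives were RLE and upper-quartile factors, TMM without RP genes, filterByExpr or no filter, a model of only the compared genotypes, leave-one-out fits, the replicate number as a block, a GC and length correction (loess span 0.3) and other thresholds; DESeq2 with each embryo left out or with the block was added after the data were seen.

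Members named in the text were Rplp0, Rpsa, the role groups, the 4 smallest p per direction in each mutant against control, the 3 smallest between mutants, and the 3 highest and lowest per kb. Up to 3 genes per direction were named from each other list. Rpl36 was named for its range in controls, and the members shown as sequences for their low or high coding GC or their start. Some items are not reported here. Members and lists were chosen with earlier results of these data known. Same-numbered embryos are different animals, and their deviations correlated at a mean r of -0.169, against 0.0835 for other pairs, so the numbers were not taken as pairs. The library names share a number in 3 pairs (controls 1 and 2 with cKO 2 and 3, control 3 with dcKO 3), whose meaning the labels do not give; their deviations correlated at 0.191, -0.0134 and -0.537. In simulated data for cKO against control (13680 genes, 200 changed 4-fold, dispersion 0.01 or 0.05), edgeR recovered 100% with 6 or 12 false calls and DESeq2 100% with 21 or 26. The simulation gave all genes and groups the same dispersion, and its changes were larger than those of most members. It therefore cannot show how smaller changes are recovered, or changes under unequal spread between groups. Python 3.11.15 with pandas 2.3.3, NumPy 2.4.6, SciPy 1.17.1 and matplotlib 3.10.9 was used otherwise.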

Additional observations from a re-analysis of the deposited data

How the results depend on the processing

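At an adjusted p under 0.05, where edgeR called 0 members, other settings called more members lower in cKO: DESeq2 22, upper-quartile factors 2, no filter 16, only the 6 embryos compared 50, the GC and length correction 20, and an adjusted p under 0.1 19; leaving out single embryos gave 0 to 45. The shares of all genes called lower were 7.08%, 1.1%, 2.08%, 24.2% and 7.66% in the first 5, and 0 to 14.8% without single embryos. In dcKO these counts were 19 with DESeq2, 9 with no filter, 3 with the GC and length correction and 13 at an adjusted p under 0.1 (7.41%, 1.74% and 0.811% of all genes in the first 3), and 0 to 47 lower and 0 to 4 higher when single embryos were left out. Of all genes, 0 to 23.7% were lower and 0 to 25.5% higher in the dcKO fits without single embryos. At an unadjusted p under 0.05 the 33 members lower in cKO became 53 with only the 6 embryos (27.4% of all genes) and 20 to 49 without single embryos; the 30 in dcKO became 17 with only the 6 embryos (8.56%) and 14 to 48, and those higher, 0, became 1 with the GC and length correction and 0 to 7. At that unadjusted p, 6.68 to 21.1% of all genes were lower in cKO and 6.62 to 26.5% in dcKO without single embryos. Without single embryos, DESeq2's 22 in cKO became 3, 4, 5 or 12 (a control or cKO embryo left out), 37 and 48 (dcKO embryo 1 or 3), and its 19 in dcKO became 2, 4, 6, 7, 8, 12 or 48, with 0 to 6 higher. Between dcKO and cKO, leaving out single embryos gave 0 to 22 lower and 0 to 4 higher at an adjusted p, 0 to 29 and 0 to 8 unadjusted, and the GC and length correction gave 1 higher. Of all genes, 0 to 13.1% were lower and 0 to 13.5% higher at an adjusted p without single embryos, and 1.16 to 20.2% were lower unadjusted.

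The median log2 fold change in cKO, -0.56, became -0.45 with upper-quartile factors, which moved the median of all genes from 0.01 to 0.12, and -0.62 with no filter or with filterByExpr, -0.46 with the GC and length correction, and -0.61 to -0.51 without single embryos. In dcKO it stayed between -0.69 and -0.39 in all settings run. Between dcKO and cKO the median of 0.11 became -0.006032 with limma voom and ranged from -0.15 to 0.25 without single embryos. Counting paralogs, fusions and pseudogenes with the members raised the shares of reads to 6.54% in Ctrl and 5.24% in cKO; the mean shares ranged from 5.83 to 6.04%, 4.62 to 4.79% and 4.10 to 4.92% without single embryos.

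The replicate number as a block left 0 members at an adjusted p under 0.05 in each comparison, and 29 lower in cKO and 34 in dcKO at an unadjusted p (9.28% and 10.1% of all genes); the median in cKO with the block and the GC and length correction was -0.47, and 1 member was then higher in dcKO at an unadjusted p. With both, 0 members were lower at an adjusted p in either mutant. DESeq2 with the block called 15 and 17 lower (4.45% and 5.54% of all genes).

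Of 42 named members, 12 changed sign in some setting in cKO, 12 in dcKO and 24 between dcKO and cKO; of these 10, 11 and 17 had no p under 0.05 in either fit. With a p under 0.05 in a fit, Rpl38 turned to 0.0786 in cKO and 0.47 in dcKO under the GC and length correction (0.0667 and 0.44 with the block as well) and Rpl5 to -0.32 in cKO. Between dcKO and cKO the values without single embryos ran from -1.41 to 0.585 in Rpl18, from -0.815 to 0.468 in Rpl41, from -0.586 to 0.546 in Rplp0, from -0.895 to 0.912 in Rplp2, from -0.935 to 0.498 in Rps26, from -0.559 to 0.442 in Rps28, from -0.712 to 0.856 in Rps29, each lowest without dcKO embryo 3 and highest without dcKO embryo 1. The cause of these changes was not tested.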
